A study of Mus musculus with 8 samples.

Results

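The 76 genes described here carry a symbol of mitochondrial ribosomal protein genes, one that begins with Mrpl or Mrps followed by a digit. They were chosen by symbol alone, though with earlier results of these data known, and they are 76 of the 16599 genes kept from the expression tables of 8 single neurons. By the place of their proteins in known structures, 49 belong to the large subunit (Mrps18a and Mrps30 among them, whatever their names) and 26 to the small subunit. Mrps36, whose protein is also known as a part of the α-ketoglutarate dehydrogenase complex, was not assigned to a subunit but is counted among the 76.

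The mitochondrial ribosome translates the few mRNAs of the mitochondrial genome, which encode core subunits of the respiratory chain and ATP synthase. Its RNAs are transcribed inside the organelle, whereas all its proteins are encoded in the nucleus, made in the cytosol and imported. Many of these proteins have a counterpart in bacterial ribosomes, and others are found only in mitochondria.

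The study asked how female neurons that express ERα, an estrogen receptor, sense glucose in the vlVMH (the ventrolateral part of the ventromedial hypothalamus). Single neurons with the ZsGreen reporter of ERα-ZsGreen mice were patched, classed by their response when glucose was lowered to 1 mM in place of 5 mM, and picked by hand for RNA sequencing. GE neurons 1, 4, 6 and 8 were hyperpolarized and fired less in low glucose, and GI neurons 2, 3, 5 and 7 were depolarized and fired more. All 8 came from 2 mice of the same reporter line, and all had gone through the same glucose protocol. The labels give neither the age of the mice nor the mouse behind each neuron, so each class counts as 1 sample. No p-value or standard error was computed from the neurons, which share animals and are not replicates of a class. GI neuron 3, left out by the study for its few reads, is given apart, and class levels are the means of 4 GE and 3 GI neurons.

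The 4 GE and 3 GI libraries held 6144126 to 14900568 reads, against 126914 reads in GI neuron 3. Of the reads of GE neuron 1, 48.2% were mapped, against 74.7% to 77.3% in the other libraries of the 7. The 7 pan-neuronal markers found were all listed in every one of the 7 neurons, with summed levels of 899 to 1128 FPKM in the GE class and 863 to 974 FPKM in the GI class. FPKM stands for fragments per kilobase of transcript, scaled to the number of mapped fragments in the library. Esr1, the gene of ERα itself, was close to absent, at 0.873 and 0.36 FPKM in GE neurons 1 and 4 and at 1.04 and 0.339 FPKM in GI neurons 2 and 7, with no value in the other neurons. It is 1 of 6 glutamatergic and VMH markers. Together these summed to 428 to 676 FPKM in the GE class and 372 to 488 FPKM in the GI class. The 4 of them that passed the level filter all had a higher mean in GE neurons. Markers of other cells were present as well, and of the lists below only the erythroid sums did not overlap between the classes. All 7 oligodendrocyte markers passed the level filter, 6 of them at a higher mean in GE neurons, and they summed to 492 to 1196 FPKM in the GE class and 344 to 636 FPKM in the GI class. The 7 astrocyte markers summed to 1044 to 2648 FPKM in the GE class and 1173 to 1895 FPKM in the GI class. The 7 microglial markers summed to 373 to 920 FPKM in the GE class and 435 to 814 FPKM in the GI class. The 4 erythroid markers found summed to 947 to 2240 FPKM in the GE class and 2906 to 5054 FPKM in the GI class, without overlap. The 6 arcuate neuropeptide genes summed to 9586 to 11974 FPKM in the GE class and 9602 to 13925 FPKM in the GI class. Each marker found in the tables had a value in at least 1 of the 7 neurons, while 4 of the 6 erythroid and 7 of the 8 pan-neuronal symbols were found. The part of such RNA in the results below was not tested.

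Every one of the 76 genes was listed above 1 FPKM in each of the 7 neurons, and all 76 passed the filter of a class mean of at least 5 FPKM. The lowest value in any neuron was 1.14 FPKM and the highest 1525 FPKM. In GI neuron 3, 56 of the 76 were listed and 20 were not. By their means over the other 7 neurons, the 56 had a median level of 132 FPKM and the 20 a median level of 43.5 FPKM. In GI neuron 3 a value of 0 therefore stands beside a depth at which the 56 listed members were read from a median of 2.47 fragments. Absence of RNA cannot be inferred from such a value.

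Summed over all 76 genes, the level was 16633, 11792, 12268 and 12512 FPKM in GE neurons 1, 4, 6 and 8, against 16843, 11746 and 12535 FPKM in GI neurons 2, 5 and 7. Each class thus held 1 neuron well above the rest, and the classes overlapped over almost their whole range. As a share of all FPKM in the library, the members took 1.25%, 1.12%, 1.09% and 1.15% in the GE neurons and 1.14%, 1.08% and 1.19% in the GI neurons. On this scale the neurons lay closer together, with class means of 1.15% in GE neurons and 1.14% in GI neurons. The share was 0.805% in GI neuron 3.

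**Figure D1:**
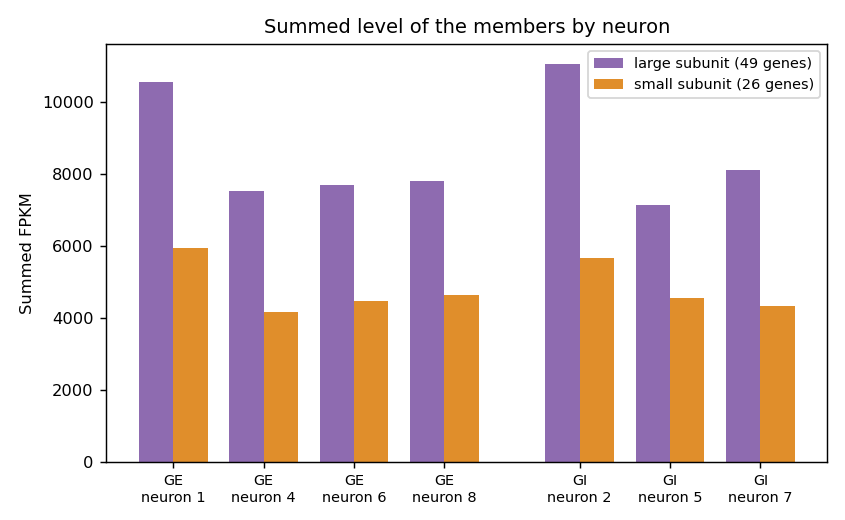
Summed FPKM (vertical axis, from 0) of the 49 large subunit and 26 small subunit genes in each of the 4 GE neurons (left) and 3 GI neurons (right). GE neuron 1 and GI neuron 2 stand highest for both subunits.

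Large subunit genes summed to 10557, 7505, 7679 and 7793 FPKM in GE neurons, and to 11047, 7133 and 8113 FPKM in GI neurons. Small subunit genes summed to 5923, 4164, 4449 and 4628 FPKM in GE neurons, and to 5670, 4551 and 4326 FPKM in GI neurons. The large subunit sum was 1.68 to 1.80 times the small subunit sum in GE neurons, and 1.57 to 1.95 times in GI neurons, so the ranges overlapped. GE neuron 1 had the highest value of the 7 neurons for 26 of the 76 genes and GI neuron 2 for 16. GI neuron 5 had the lowest value for 21 genes and GE neuron 6 for 18.

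For each gene the GE mean was divided by the GI mean and given as a log2 ratio after adding 1 FPKM to both. Its median over the 76 genes was -0.01, with quartiles at -0.17 and 0.21, beside a median of 0.02 over all 6990 genes past the filter. The mean was higher in GE neurons for 37 genes and higher in GI neurons for 39, beside 3656 and 3334 of all 6990 genes past the filter. These numbers over all genes are the background for each such count from the 7 neurons, here and for the subunits and lists. Only Mrpl47 was at least 2-fold higher in GE neurons, and no member was at least 2-fold higher in GI neurons. Of all genes past the filter, 3.71% were at least 2-fold higher in GE neurons and 2.92% at least 2-fold higher in GI neurons, so the members' counts lay at or below this background. Every GE neuron lay above every GI neuron for 2 members, Mrpl47 and Mrpl19, and the opposite held for none, against 2.68% and 2.02% of all genes. These counts were 2 to 7 and 1 to 4 when 1 neuron was left out. They were 7 and 2 without GI neuron 2, 6 and 1 without GE neuron 4, and 4 and 4 without GI neuron 7. Shares over all genes were not computed for these runs, in which smaller classes separate more easily. The 2.68% and 2.02% are therefore no background for them. Mrpl47 and Mrpl19 had to remain separated in each of these runs, because leaving out a neuron cannot end a separation.

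The ratio lay within 0.5 of 0 for 70 of the 76 genes (92.1%), against 74.8% of all genes past the filter, which had lower levels in general. Among genes with a mean of at least 100 FPKM over the 7 neurons, it lay within 0.5 for 39 of 39 members and for 92.9% of the 1099 genes at this level. Between 20 and 100 FPKM the share was 80.8% of 26 members and 83.7% of 1850 genes. Below 20 FPKM it was 90.9% of 11 members and 65.8% of 4041 genes. Read within these bands, the members were not uniformly nearer to 0 than other genes of like level.

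**Figure D2:**
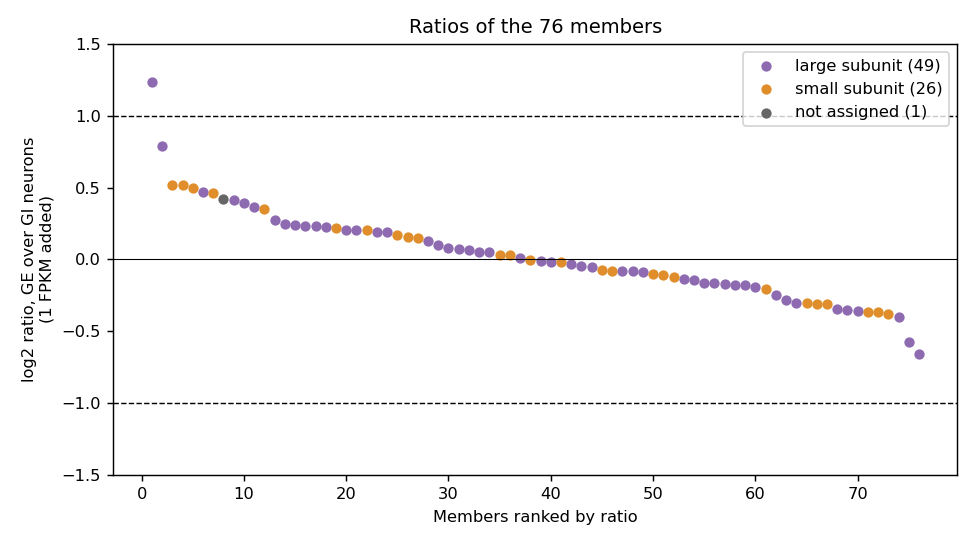
Log2 ratio, GE class over GI class, after adding 1 FPKM, for the 76 genes in order of the ratio, coloured by subunit. The dashed lines mark a 2-fold difference, which only Mrpl47 passes, at 1.24.

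By subunit, the median ratio was -0.01 for the large subunit, with 24 genes higher in GE neurons and 25 in GI neurons. It was also -0.01 for the small subunit, with 12 and 14 genes. The 48 genes whose proteins have a bacterial homologue had a median of 0.02 (25 higher in GE neurons, 23 in GI neurons), and the 27 genes of proteins specific to mitochondria a median of -0.07 (11 and 16). Each of these medians lay nearer to 0 than the spread between neurons, which was 0.20 on the log2 scale for the median of all members (pooled SD within the classes).

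Mrpl47, Mrpl19 and Mrps30 come first, as the members without overlap and those with the largest positive ratios. The Mrpl47 protein is a large subunit protein at the exit of the tunnel through which the nascent chain leaves the ribosome. The gene lies at chr3:32725397-32737605 on the minus strand (GRCm38, GENCODE). Its level was 58.5, 66.8, 32.6 and 50.8 FPKM in GE neurons 1, 4, 6 and 8, against 22, 23.7 and 19.1 FPKM in GI neurons 2, 5 and 7. The lowest GE value was above the highest GI value, and the log2 ratio was 1.24, from a mean of 52.2 FPKM among GE neurons against 21.6 FPKM among GI neurons. Mrpl47 was not listed in GI neuron 3, and the smallest number of fragments behind any of the 7 values was 18.9.

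The library kit does not mark strand, so reads of overlapping genes on opposite strands cannot be told apart. Of the 4419 exonic bases of Mrpl47, 616 are shared with Ndufb5, a complex I subunit gene on the opposite strand, and 452 with Actl6a, a chromatin remodelling subunit gene. Ndufb5 was at 397 to 557 FPKM in the GE class and 420 to 621 FPKM in the GI class (log2 ratio -0.06). Actl6a averaged 5.19 FPKM in the GE class and 4.70 FPKM in the GI class. These overlaps are those of GENCODE. The authors' tables give other positions for most genes (both ends within 1000 bp of GENCODE for 7 of the 76 members), and there the locus of Mrpl47 overlaps neither neighbour. Neither neighbour had a ratio near that of Mrpl47, and how shared reads were assigned was not tested.

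Mrpl19, a large subunit protein of bacterial descent, was the other member without overlap. Its values were 11.4, 9.46, 11.2 and 11.1 FPKM in GE neurons, against 8.0, 7.08 and 7.37 FPKM in GI neurons. These are narrow ranges at a low level, with a log2 ratio of 0.47, and GI neuron 3 had 12.9 FPKM, a value read from 1.28 fragments with an interval of 0 to 35.7 FPKM, which places it neither above nor below the others. Mrpl19 shares 1962 of its 5450 exonic bases with Gcfc2 on the opposite strand in GENCODE, and the 2 loci also overlap in the authors' tables, where Gcfc2 carries its synonym AW146020.

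Mrps30, which in spite of its name encodes a large subunit protein of mitochondria, had the second largest positive ratio, 0.79. It was at 21.3, 7.66, 7.69 and 17.4 FPKM in the GE class and at 10.2, 1.14 and 10.9 FPKM in the GI class. The value of 1.14 FPKM in GI neuron 5 rested on 3 fragments, and without that neuron the ratio was 0.33. The classes overlapped, and the highest value over the 7 neurons was 18.7 times the lowest.

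**Figure D3:**
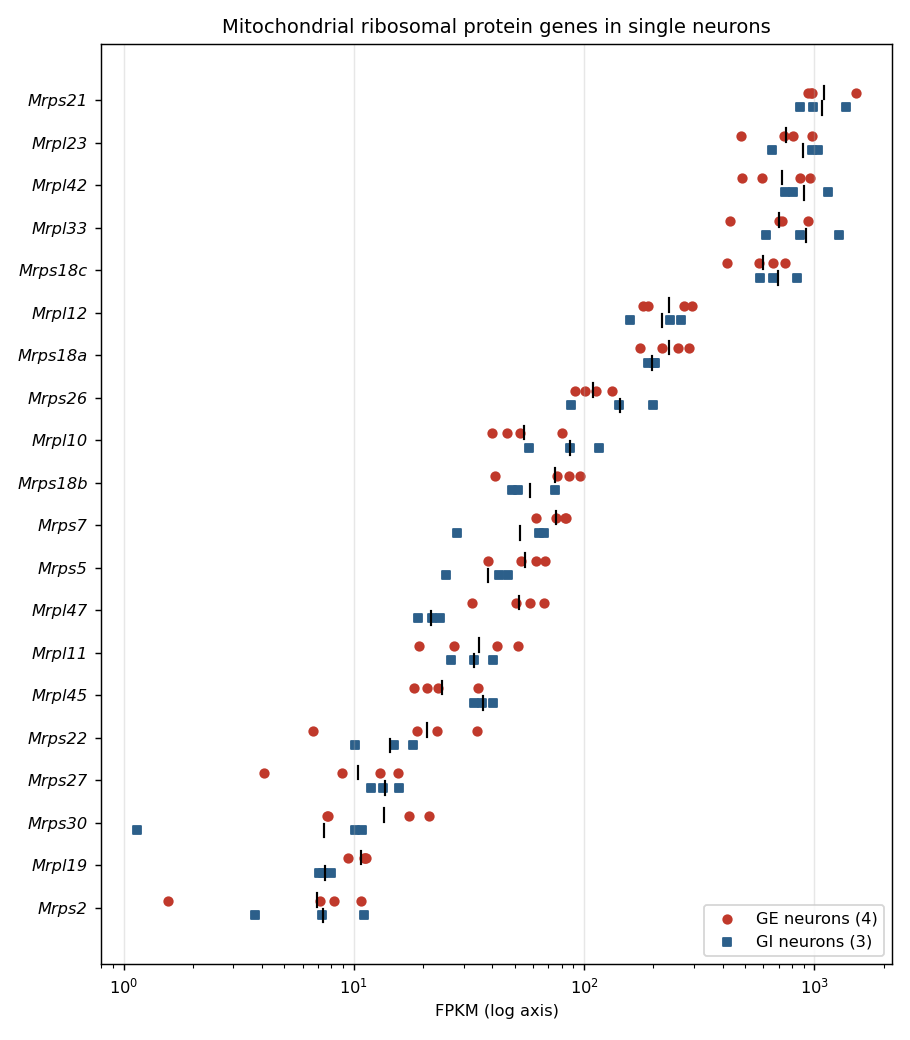
FPKM (log axis) of 20 members in each neuron, with GE neurons (4, circles) above GI neurons (3, squares) for each gene and a black bar at the class mean. Mrpl47 and Mrpl19 are the 2 genes whose GE values lie wholly above their GI values.

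The proteins around the tunnel exit gave a mixed picture. Besides Mrpl47 they include Mrpl45, which holds the ribosome to the inner membrane, and Mrpl22, Mrpl23 and Mrpl24, of which Mrpl22 and Mrpl24 were named after their values were seen. Mrpl45 was at 23.3, 18.2, 34.5 and 20.8 FPKM in GE neurons, against 33.4, 35.9 and 40.3 FPKM in GI neurons. Its classes overlapped through GE neuron 6 only, and the log2 ratio was -0.58. Mrpl23 was at 977, 808, 479 and 740 FPKM in GE neurons, against 1039, 657 and 979 FPKM in GI neurons, and the classes overlapped. The ratios were -0.25 for Mrpl23, -0.19 for Mrpl24 and -0.18 for Mrpl22. Thus 4 of the 5 tunnel exit genes were on the GI side and Mrpl47 alone on the GE side, beside 3334 of 6990 genes past the filter on the GI side. The classes overlapped in each of the 4, and 5 genes are too few to read a direction of the tunnel exit from this count.

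The stalk, which recruits translation factors to the ribosome, contains Mrpl10 and Mrpl12, with Mrpl11 at its base. Mrpl10 had the most negative ratio of all members, -0.66. Its values were 46.1, 52.7, 40.0 and 80.0 FPKM in GE neurons, against 117, 86.9 and 57.5 FPKM in GI neurons. GE neuron 8 lay above GI neuron 7, so the classes overlapped. Mrpl11 was at 41.8, 27.3, 19.2 and 51.8 FPKM in the GE class and at 40.1, 26.5 and 33.2 FPKM in the GI class. Mrpl12 was at 272, 181, 190 and 294 FPKM in the GE class and at 263, 158 and 236 FPKM in the GI class. Both overlapped throughout, with ratios of 0.07 for Mrpl11 and 0.10 for Mrpl12.

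Among the small subunit genes, Mrps5 and Mrps7 had the largest positive ratios, both 0.52. Mrps5, a protein of the bacterial uS5 family, was at 61.8, 38.3, 53.2 and 67.9 FPKM in GE neurons, against 25.2, 46.7 and 42.9 FPKM in GI neurons. Mrps7, a protein of the subunit head, was at 75.9, 61.9, 82.7 and 83.2 FPKM in GE neurons, against 66.7, 28 and 63.5 FPKM in GI neurons. In both genes GE neuron 4 lay within the range of the GI neurons and the other 3 GE neurons lay above it.

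Mrps22, a mitochondria-specific protein, was at 23.0, 34.4, 18.7 and 6.62 FPKM in the GE class and at 18.2, 14.9 and 10.1 FPKM in the GI class, with a ratio of 0.49. The GE neurons spanned the whole range of the GI neurons, and leaving out GE neuron 4 lowered the ratio to 0.15. On the negative side, Mrps26 was at 133, 101, 91.5 and 113 FPKM in the GE class and at 142, 198 and 88.1 FPKM in the GI class, with a ratio of -0.38. Mrps27, a pentatricopeptide repeat protein, was at 15.6, 8.85, 13 and 4.09 FPKM in the GE class and at 11.9, 15.8 and 13.4 FPKM in the GI class, with a ratio of -0.37. Both pairs of classes overlapped.

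The Mrps18 family has 3 paralogues of 1 bacterial ancestor, of which Mrps18a sits in the large subunit and the other two in the small subunit. Mrps18a was at 286, 174, 218 and 256 FPKM in the GE class and at 190, 201 and 204 FPKM in the GI class (ratio 0.24). Mrps18b was at 96.1, 76.1, 41.0 and 85.8 FPKM in the GE class and at 75, 48.7 and 51.9 FPKM in the GI class (ratio 0.35). Mrps18c was at 749, 576, 663 and 417 FPKM in the GE class and at 841, 661 and 581 FPKM in the GI class (ratio -0.21). The order of the levels, Mrps18c over Mrps18a over Mrps18b, held in each of the 7 neurons, and in none of the 3 did the classes separate.

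Levels differed far more between genes than between classes. The mean over the 7 neurons ran from 7.09 FPKM for Mrps2 to 1092 FPKM for Mrps21, a 154-fold range around a median of 103 FPKM. Mrps21, a small subunit protein, was at 1525, 971, 935 and 975 FPKM in the GE class and at 1378, 992 and 867 FPKM in the GI class. Below it came Mrpl23, Mrpl42, Mrpl33 and Mrps18c, with means of 811, 801, 796 and 641 FPKM. The 10 highest genes held 49.7% of the summed level, 7 genes were over 500 FPKM and 11 under 20 FPKM.

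Mrpl42 was at 960, 484, 870 and 595 FPKM in the GE class and at 1142, 809 and 748 FPKM in the GI class. Mrpl33 was at 942, 726, 704 and 430 FPKM in the GE class and at 1285, 870 and 616 FPKM in the GI class. Their ratios were -0.31 and -0.40, and the classes overlapped in both. The order of the highest 4 genes differed between neurons, and their neighbours in level were not apart beyond this spread.

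At the low end, Mrps2 was at 8.18, 1.56, 7.14 and 10.7 FPKM in the GE class and at 3.71, 7.29 and 11.1 FPKM in the GI class, with a ratio of -0.08. As few as 4.39 fragments stood behind a value of Mrps2, and its highest value was 7.10 times its lowest. Over the 76 genes the level went with the length of the transcript, with a Spearman correlation of -0.70 across genes. The median length was 650 bases for the 10 highest genes and 2195 bases for the 10 lowest. Genes are not independent replicates and FPKM is already divided by length, so this is a description of these libraries. The log2 ratio went with neither length (0.07) nor level (-0.03).

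The rank order of the members was kept from neuron to neuron. Over the 21 pairs of neurons, the Spearman correlation across the 76 genes had a median of 0.96 (range 0.94 to 0.97), beside 0.84 (0.79 to 0.85) across all genes past the filter, many of which lie at lower levels. The coefficient of variation of a member over the 7 neurons had a median of 0.27, where the counting error read from the authors' intervals gave 0.085. Amplified reads are not independent molecules, so the counting error is a lower limit. For 43 members the highest neuron was over 2 times the lowest, and for 5 (Mrps30, Mrps2, Mrpl1, Mrpl16 and Mrps22) over 4 times.

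Genes that act with the mitochondrial ribosome were set beside its proteins. The 7 subunit genes under other names had a median ratio of 0.02, with 5 higher in GE neurons. The largest of these was Ptcd3, of the small subunit, at 12.3, 10.7, 6.08 and 11.3 FPKM in GE neurons, against 6.16, 6.69 and 4.35 FPKM in GI neurons. GE neuron 6 lay within the range of the GI neurons, and the ratio was 0.72.

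Of the 15 translation factor genes listed for this purpose, 11 passed the filter, 4 higher in GE neurons and 7 in GI neurons, with a median of -0.34. Mrrf, the ribosome recycling factor, was at 16.2, 2.39, 3.36 and 5.26 FPKM in GE neurons, against 9.29, 15.6 and 15.9 FPKM in GI neurons (ratio -0.90). GE neuron 1 was above all the GI neurons, so this gene did not separate the classes. Of 26 assembly and rRNA factors, 11 passed, 8 higher in GE neurons and 3 in GI neurons, with a median of 0.27. Of 17 mitochondrial aminoacyl-tRNA synthetases, 5 passed, 3 of them higher in GE neurons. Among the genes of these lists that passed the filter, none had non-overlapping classes. Below the filter, the translation factor gene Guf1, named after its values were seen, was at 0.272, 2.88, 1.02 and 1.07 FPKM in GE neurons, against 3.25, 3.70 and 4.06 FPKM in GI neurons, without overlap. The share of all genes below the filter without overlap was not computed, so this single gene has no background beside it.

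The ribosome's substrates, the 13 mRNAs of the mitochondrial genome, had a median ratio of -0.05, 3 of them higher in GE neurons and 10 in GI neurons. All 13 lay within 0.5 of 0. The mitochondrial transcripts took 4.95%, 7.06%, 9.28% and 5.63% of all FPKM in GE neurons and 4.64%, 9.41% and 6.35% in GI neurons, so they varied by about 2 times within each class. Cytosolic ribosomal protein genes had a median of -0.03 (28 of 77 higher in GE neurons) and the 36 nuclear complex I genes a median of 0.02 (20 of 36).

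**Figure D4:**
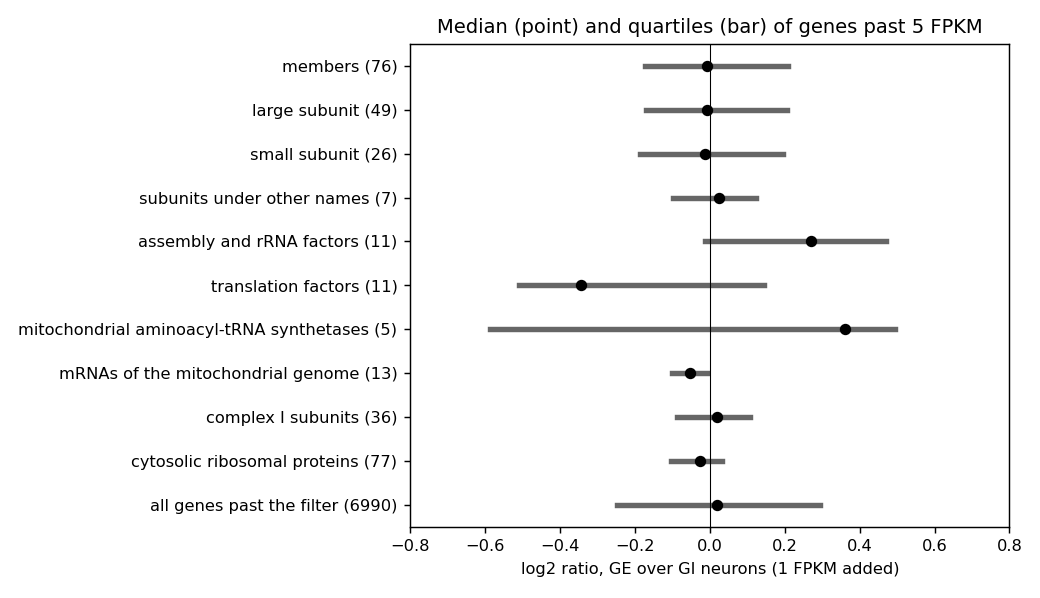
Median (point) and quartiles (bar) of the log2 ratio, GE class over GI class, for the members, their subunits, related gene lists and all genes past the filter, with the number of genes in brackets. The medians of the members and of both subunits lie at -0.01, and the lists of factors, with 5 to 11 genes, spread wider.

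The members lie on 17 chromosomes. For 32 of the 76 (42.1%), a protein-coding gene on the opposite strand has its start within 1000 bases, against 10.9% of 21951 protein-coding genes. Pairs that overlap at their starts and pairs that run away from each other were not told apart in this count. Mrpl46 and Mrps11, both members, have starts 412 bases apart and overlap there, with 173 exonic bases shared. Other partners are Ndufs6 of complex I beside Mrpl36, the ribosomal gene Fau beside Mrpl49 and the proteasome gene Psma2 beside Mrpl32. Levels of the 2 genes of a pair could be far apart. Mrpl49 averaged 35.3 FPKM in the GE class and 45.0 FPKM in the GI class, while Fau averaged 1406 FPKM in the GE class and 1400 FPKM in the GI class.

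Promoter windows from RefSeq (GRCm38.p6, 250 bases before to 50 bases after the start) were found for 67 of the 76 genes and searched on both strands for 3 short motifs. These were CGCANGCG, the core read by NRF1, CCGGAAG, read by ETS factors such as GABPA, and ATGGCGG, read by YY1. All of these factors are known regulators of nuclear genes for mitochondrial proteins. A match of the NRF1 core was present in 28.4% of members and 12.5% of 17492 protein-coding genes. The ETS core was present in 35.8% of members and 12.9% of protein-coding genes, and the YY1 core in 19.4% of members and 6.05% of protein-coding genes. Over all 27025 genes the shares were 9.22%, 9.93% and 4.69%. At least 1 of the 3 was found in 43 members (64.2%), against 26.3% of protein-coding genes, and matches of different motifs overlapped in none of the members' promoters.

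The YY1 matches of the members lay mostly after the start. In 12 of the 13 members they lay only in the 50 bases after the start. In the 250 bases before the start alone, 1.49% of members and 3.0% of protein-coding genes held the YY1 core, so the higher share of the members did not hold there. The shares there were 9.38% of complex I genes and 8.62% of cytosolic ribosomal protein genes. From the whole window to these 250 bases, the genes with a match fell from 8 to 3, from 10 to 5 and, among protein-coding genes, from 1059 to 525. Start codons were looked up for members only, so the next count has no background beside it. In 10 of the 13, the first base of the match was that of an annotated start codon, so that the same letters also encode the first residues of the protein. The following 30-base stretches, with the match in capitals, show this for Mrpl22 (chr11:58171675-58171704, plus strand), Mrps27 (chr13:99344792-99344821, plus strand), Mrps30 (chr13:118387216-118387245, minus strand) and Mrps5 (chr2:127587417-127587446, plus strand).
Mrpl22: tagggctcagcATGGCGGccgcactactgc
Mrps27: tgcgctccaagATGGCGGctcccatggtgc
Mrps30: ggcgggcgaaaATGGCGGcggccaggtatt
Mrps5: ccggctccagcATGGCGGcggccgtacgcg

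The 250 bases before the start are given for 4 members, with NRF1 and ETS matches in capitals. Mrpl22 and Mrps27 are the 2 members with all 3 motifs, Mrpl10 had the most negative ratio and Mrpl47 the largest. The windows are at chr11:58171414-58171663 (plus strand), chr13:99344536-99344785 (plus strand), chr11:97041332-97041581 (plus strand) and chr3:32736756-32737005 (minus strand). The window of Mrpl47 lies within the gene as GENCODE places it (chr3:32725397-32737605), as RefSeq has the start further downstream.
Mrpl22: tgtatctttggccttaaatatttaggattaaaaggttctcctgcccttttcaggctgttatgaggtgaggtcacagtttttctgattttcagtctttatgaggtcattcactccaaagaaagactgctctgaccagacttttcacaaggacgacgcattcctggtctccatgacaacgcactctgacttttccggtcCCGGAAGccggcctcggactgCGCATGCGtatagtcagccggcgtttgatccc
Mrps27: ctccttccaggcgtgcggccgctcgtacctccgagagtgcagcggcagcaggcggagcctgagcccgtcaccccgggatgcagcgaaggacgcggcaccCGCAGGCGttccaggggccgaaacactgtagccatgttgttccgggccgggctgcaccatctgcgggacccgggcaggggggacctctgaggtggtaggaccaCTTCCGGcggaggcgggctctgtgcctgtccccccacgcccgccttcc
Mrpl10: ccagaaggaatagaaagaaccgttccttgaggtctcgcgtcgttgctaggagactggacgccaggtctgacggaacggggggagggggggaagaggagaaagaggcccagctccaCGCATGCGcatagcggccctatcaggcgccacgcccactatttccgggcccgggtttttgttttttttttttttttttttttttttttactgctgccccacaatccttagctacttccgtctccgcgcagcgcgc
Mrpl47: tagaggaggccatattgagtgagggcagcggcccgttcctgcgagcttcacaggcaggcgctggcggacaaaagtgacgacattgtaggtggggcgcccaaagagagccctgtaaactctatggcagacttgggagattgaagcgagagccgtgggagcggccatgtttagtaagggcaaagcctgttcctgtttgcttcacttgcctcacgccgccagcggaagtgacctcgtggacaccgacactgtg

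Mrpl22 and Mrps27 had ratios of -0.18 and -0.37, and Mrpl10 carries 1 NRF1 match. The letters of none of the 3 motifs are in the window of Mrpl47, from which nothing follows about the factors. That window was set by the RefSeq start, and the bases before the GENCODE start were not searched.

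**Figure D5:**
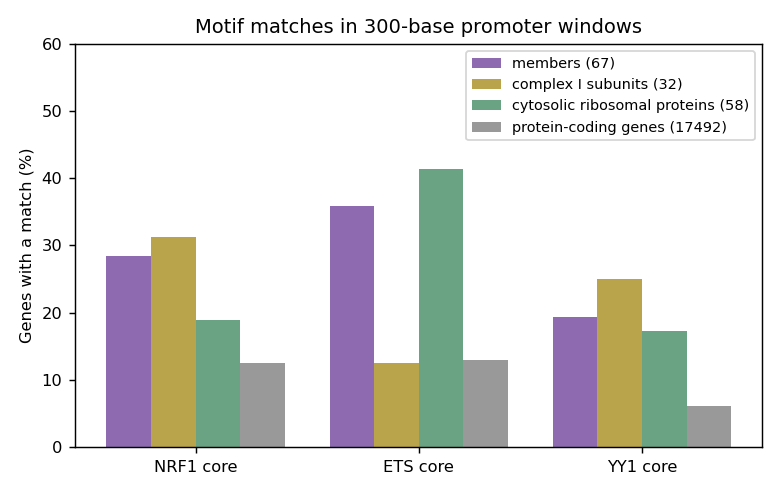
Percent of genes (vertical axis, from 0) whose 300-base RefSeq promoter window holds a match of each motif, for 67 members, 32 complex I genes, 58 cytosolic ribosomal protein genes and 17492 protein-coding genes. Members stand at 28.4%, 35.8% and 19.4% for the NRF1, ETS and YY1 cores.

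Cytosolic ribosomal protein genes had 19.0%, 41.4% and 17.2% for the NRF1, ETS and YY1 cores, and complex I genes 31.3%, 12.5% and 25%. In these shares the members lay near complex I for NRF1 and near the cytosolic ribosome for ETS, which is a description without a test.

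Reads of near-identical copies limit some members. In 19 of the 76 genes, an annotated pseudogene matches a transcript of the gene over at least 200 bases at 95% identity or more, and Mrps5, Mrps18b, Mrps21, Mrps26, Mrpl22, Mrpl23 and Mrpl42 are among them. In 23 genes, exonic bases are shared in GENCODE with another protein-coding gene, whereas 9 members overlap the locus of another gene at the positions of the tables. Lengths and overlaps given here may therefore not be those behind the FPKM values. Whether reads of such copies entered these values was not tested.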

How the data were processed

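RNA of 8 single neurons was amplified with SMART-Seq v4 and sequenced as paired 100 bp reads. The authors deposited FPKM values per gene and neuron, with interval bounds, and list only genes above 0, so a gene that is not listed was taken as 0. The quality table deposited by the authors gives total reads and the mapped fraction of reads; its bias ratio, made by the authors, was not used. Which tool and genome build made the FPKM tables was not stated in any source used here. The submitters' processing notes name Trim Galore 0.4.1, STAR 2.5.3a, featureCounts 1.6.0 and builds GRCm38.p6 and GRCh38; the counts are not used here. Some labels also name human chondroprogenitors, and the organism and source labels (mouse hypothalamic neuron) were followed.

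Gene names that occurred at more than 1 locus (110) or had become dates (24) were removed. Class levels are means of neurons, ratios use a pseudocount of 1 FPKM, genes needed 5 FPKM in either class, and a log2 ratio past 1 in size was counted. Fragments were read from the interval, whose upper arm was taken as 2 SD. Depth per neuron limits precision, and such intervals cover counting error only. Named members are those past a 2-fold ratio, the 5 largest ratios in each direction, the 5 highest and 3 lowest levels, members without overlap of the classes, the Mrps18 paralogues and the stalk proteins; others (Mrpl1, Mrpl16, Mrpl22, Mrpl24 and list genes) were named after their values were seen. Members and lists were chosen with earlier results of these data known. Positions, lengths and overlaps are from GENCODE vM21 (GRCm38); most positions in the authors' tables differ from these. Alternatives were the inclusion of GI neuron 3, the omission of each neuron in turn, medians for means, other pseudocounts, filters and scalings, and a shorter promoter window. Python 3.11.15, numpy 2.4.6, pandas 2.3.3, scipy 1.17.1, matplotlib 3.10.9 and BLAST 2.17.0 were used, and the ratio code was tested on simulated data.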

Additional observations from a re-analysis of the deposited data

Results flagged for a closer look

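In 4 of 24 values examined over the 4 GE neurons, 1 neuron lay far from the other 3, as judged by its gap to the nearest neuron over the whole range. Chance alone gives this in about 1 of 20 groups of 4 independent, normally distributed values. These neurons share mice and several of the 24 values share genes, so 4 of 24 cannot be judged against that rate. The GI neurons, 3 in number, were not examined. GE neuron 1 stood above the others for the summed level of the members (16633 FPKM, gap over range 0.851), the summed level of the large subunit (10557 FPKM, 0.906) and Mrps21 (1525 FPKM, 0.932). The first 2 of these share most of their genes. The same neuron had the most reads, 14900568, and the lowest mapped share, 48.2%. Its FPKM summed over all genes was 1.33e+06, against 1.06e+06 to 1.12e+06 in the other GE neurons. The part of these in the flags was not tested. As a share of all FPKM, the members were also examined and were not flagged (0.635). GE neuron 4 lay below the others for Mrpl19 (9.46 FPKM, 0.846).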

How the results depend on the processing

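Across all alternatives, the median ratio of the members stayed between -0.07 and 0.12, within the spread between neurons, and its sign was not constant. Leaving out each neuron in turn gave 30 to 47 members higher in GE neurons and 29 to 46 higher in GI neurons, with the extremes without GE neuron 1 and without GI neuron 2. In the same runs 1 to 2 members were at least 2-fold higher in GE neurons, against 3.43% to 6.74% of all genes past the filter. The second was Mrps30, at 1.05 without GI neuron 2 and 1.12 without GI neuron 7. Adding GI neuron 3 gave 1 member at least 2-fold higher in GI neurons, against 8.07% of all genes past the filter. This was Mrps2 at -1.26, a gene with 2.04 fragments in that neuron. The same addition ended the separation of Mrpl19, which the 20 FPKM filter also removed. Scaling without the 100 highest genes put every GI neuron above every GE neuron for 1 member, Mrpl17, and every GE neuron above every GI neuron for 3, Mrps7 being the addition. Mrpl39 was added when scaled without mitochondrial transcripts. Shares of all genes without overlap were not computed for these scalings. Mrpl47 stayed at 1.10 to 1.63 in all 14 alternatives run on it. The large subunit median ran from -0.09 (without GI neuron 5) to 0.16 (without GI neuron 2) and the small subunit median from -0.11 (without GI neuron 7) to 0.09 (GI neuron 3 added). The sign of the ratio of Mrpl11, Mrpl12, Mrpl42, Mrps2, Mrps21 and Mrps27 changed in at least 1 alternative. With 250 bases before the start only, 1 member (1.49%) in place of 13 held the YY1 core, beside 3.0% of protein-coding genes, so the direction of this difference turned. No paired analysis was possible because the labels do not assign neurons to the 2 mice, and neuron numbers only name single cells. With 1 sample per class and no test, depth and the number of neurons limit all comparisons.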
